A study of Drosophila melanogaster with 3 samples.

Results

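Of 10 genes that specify glia or build the glial blood-brain barrier of Drosophila melanogaster, 5 carried a summit of GFP-tagged Ewg at a transcript start in the authors' reproducible peak set. These were the fate genes gcm and repo, the barrier signalling genes moody and loco, and the tricellular junction gene Gli. That is 50% of the genes, against 26.4% of all 13945 protein-coding genes (3679 bound). The 10 genes were chosen with earlier results of these data known. The 26.4% was not matched for the number of starts of a gene, with which the bound share rose. Signal differed widely among the 5 bound genes. The summit at loco was about 4.89 times as strong as the median peak and that at moody 2.92 times, whereas the summit at repo was at 0.526 of the median. Wrapper, Nrx-IV, nrv2, gcm2 and Eaat1 had no summit of this set at a start. Weaker regions outside the set, at the starts of wrapper and Nrx-IV, were found in all 3 replicates. The wider lists held 7 genes of the Moody G protein pathway, moody and loco among them, and each had a promoter summit. Those at loco, Pka-C1 and Ggamma1 also lay within 500 bp of a start of another gene. None of 5 barrier transporter genes had a promoter summit.

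The 10 genes were taken by name from the Ensembl dm6 annotation, and all of them were found there. The series holds 3 biological replicates of 1 group and no control sample. Embryos of both sexes, 0 to 14 hours old, came from a transgenic line that stably expresses ewg with GFP at its C-terminal end. Their chromatin was sonicated to 200 to 800 bp and precipitated with an antibody against GFP. Ewg (erect wing) is the fly homologue of the vertebrate transcription factor NRF-1. The driver of the transgene and its level against native Ewg were not stated in the labels. Whole embryos were used, so the lists do not tell in which cells Ewg was bound. More bound cells and more binding per cell cannot be told apart.

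In the fly nervous system, Gcm turns neural precursors towards the glial fate and activates Repo, which maintains glial differentiation. The subperineurial glia then seal the brain from the haemolymph with septate junctions, under the control of the receptor Moody and its G proteins. Inside the barrier, astrocyte-like glia take up transmitters, while cortex and wrapping glia enclose neuronal cell bodies and axons.

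The sequences around 4 of the promoter summits are shown because these summits span the range of signal among the fate and signalling genes. Each is given 5′ to 3′ on the strand of its gene, on dm6. Windows reached at most 100 bp to either side of the summit and were ended where a UTR began, so that the gcm and loco runs lie just upstream of the start. The summit of loco itself lay 22 bp inside the 5′ UTR and is not in the run. Capitals mark TGCGCA in gcm, the NRF-1 palindrome with 1 mismatch in repo, the DREF element (DRE, TATCGATA) in loco and GAGAG in moody.
gcm, chr2L:9581746-9581858, minus strand: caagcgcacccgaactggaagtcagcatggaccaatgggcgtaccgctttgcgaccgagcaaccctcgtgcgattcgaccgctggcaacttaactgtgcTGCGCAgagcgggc
repo, chr3R:18235947-18236147, plus strand: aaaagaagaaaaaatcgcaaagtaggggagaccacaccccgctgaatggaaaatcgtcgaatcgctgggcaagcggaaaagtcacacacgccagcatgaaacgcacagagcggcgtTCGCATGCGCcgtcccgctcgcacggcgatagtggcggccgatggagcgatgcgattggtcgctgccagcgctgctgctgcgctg
loco, chr3R:22639388-22639465, minus strand: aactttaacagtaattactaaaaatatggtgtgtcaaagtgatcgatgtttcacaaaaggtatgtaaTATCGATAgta
moody, chrX:2050179-2050379, minus strand: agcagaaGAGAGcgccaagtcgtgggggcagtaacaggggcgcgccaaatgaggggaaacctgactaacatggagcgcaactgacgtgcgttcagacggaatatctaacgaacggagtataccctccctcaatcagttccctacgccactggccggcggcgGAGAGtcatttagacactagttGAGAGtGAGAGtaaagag

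No motif among those searched was in all 4 of the full windows. The bases within 100 bp of the gcm, repo and moody summits were 56.2%, 59.7% and 54.7% G or C. The corresponding window at the inner loco summit, 22639365, had 30.3%. Over all 6793 optimal summits the median was 39.3% and the quartiles were 32.8% and 47.8%. The gcm, repo and moody windows thus lay above the upper quartile and that of the inner loco summit below the lower one. The outer loco summit, 22639565, had 34.3%, inside the quartiles. The promoter summits of Gli had 53.7% at 15762697 and 30.85% at 15762025, on either side of the quartiles.

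The deposited lists were of several kinds. The optimal set held 6793 peaks that passed the authors' irreproducible discovery rate threshold over the 3 replicates, with a signal from 141.8 to 4999 and a median of 269.9. The permissive lists, 1 from the pooled replicates and 1 from each replicate, held 30000 regions each and contain background as well as peaks. A summit here means the deposited highest point of a region. A promoter summit is one at most 500 bp from any annotated start of a coding transcript, and genes with such a summit in the optimal set are called bound. Relative signal is the signal in a replicate divided by the median of that replicate over the 5852 optimal peaks found in all 3, so that 1 is a typical peak. A summit was taken as found in a replicate when that replicate's list had a summit within 100 bp. The lists give no read depth.

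The share of bound genes depended on how many starts a gene has. It was 20.1% for genes with 1 start, 41.1% with 2 or 3 and 64.5% with 4 or more. Among the bound members, gcm and repo have 1 start, moody and Gli 2 and loco 4. Among the others, gcm2, wrapper and Nrx-IV have 1, Eaat1 has 2 and nrv2 has 4. Only loco and Gli held an optimal summit inside the gene, against 15.5% of all genes. When the flanks out to 5 kb were added, 7 of the 10 genes had an optimal summit, against 56.9% of all genes. In the pooled permissive list, 8 of the 10 had a promoter summit, against 46.8%, and the exceptions were gcm2 and Eaat1. Gene length ran from 2248 bp at gcm to 19420 bp at loco, with a median of 2166 bp over all genes. Each member was thus longer than the median, gcm only slightly. The shares inside genes and with flanks were not matched for length, and its part in them was not tested.

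In all, 58 summits of the pooled list lay in these genes or within 5 kb, of which 19 belonged to the optimal set. A start of the member itself was the nearest protein-coding start for 9 of the 19. For the other 10 it was the start of a neighbouring gene. Of the 19, 18 were found in all 3 replicates, beside 5852 of all 6793 optimal peaks, a set itself chosen for reproducibility. The exception was an intronic summit of loco with no partner in replicate 2. When a partner had to lie within 50 bp the count was 15, and with only the strongest regions of each replicate it was 13.

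**Figure D1:**
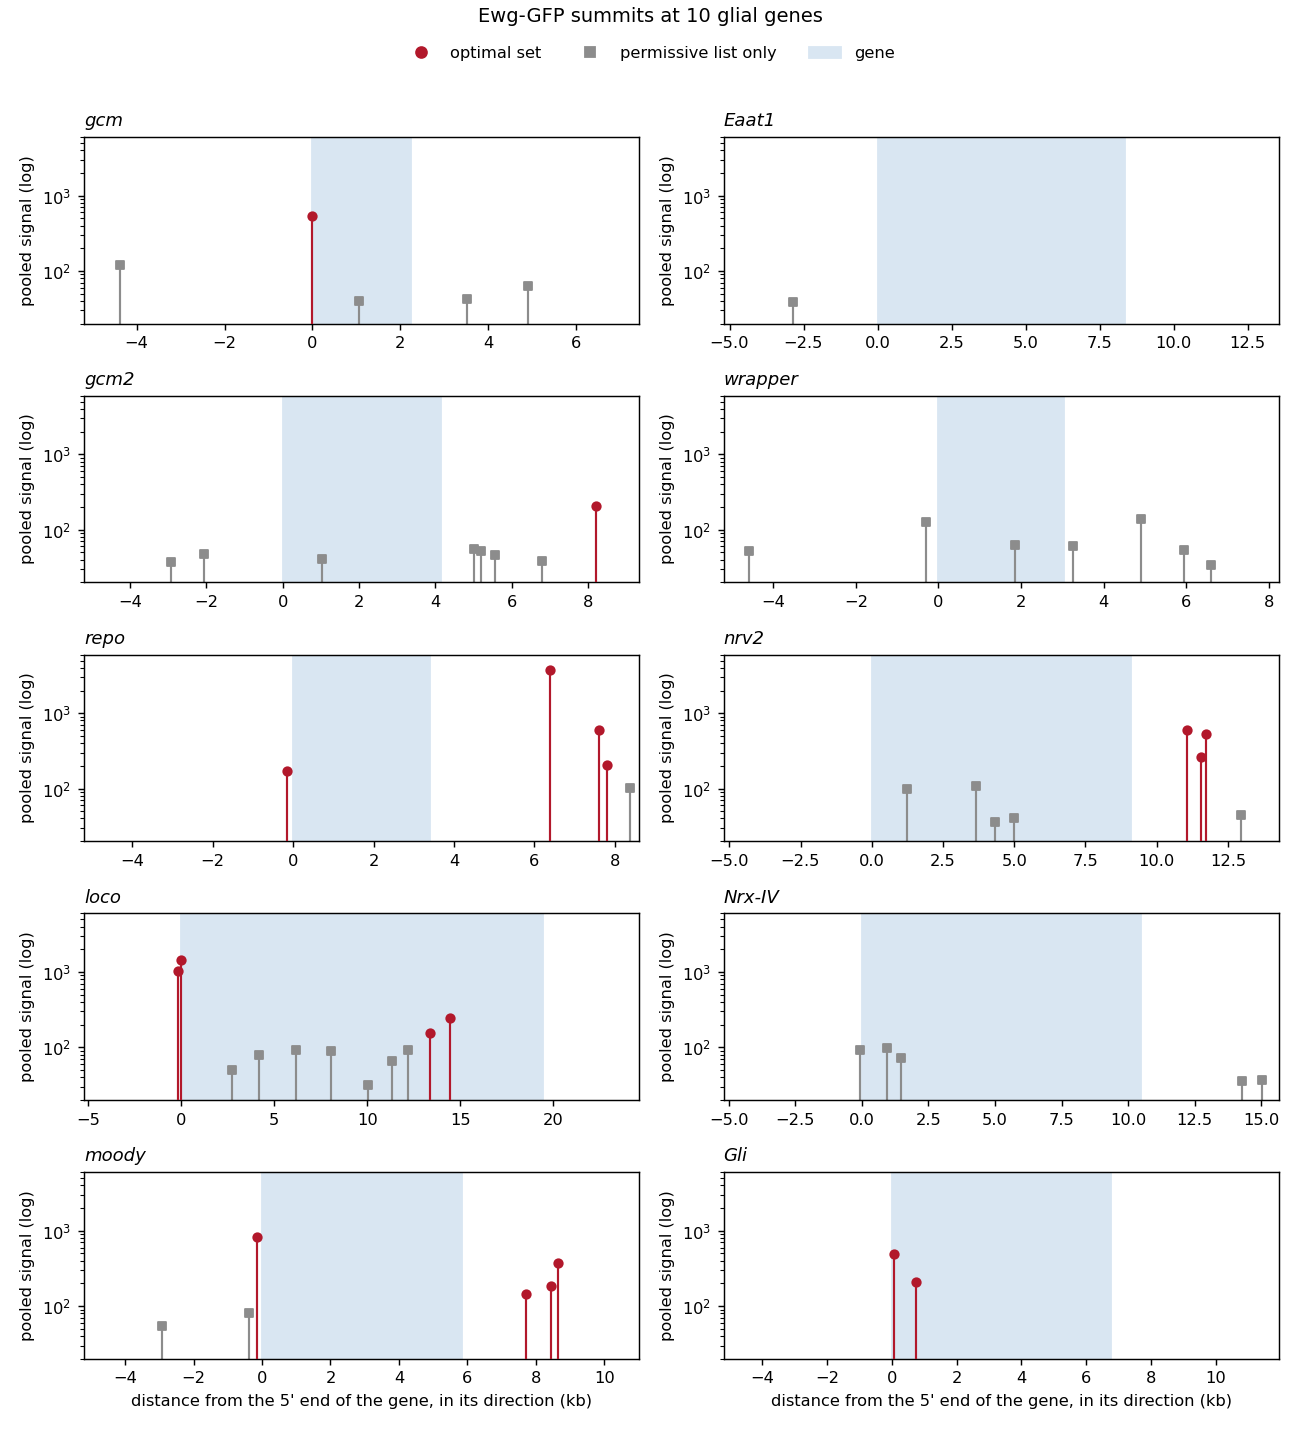
Pooled signal (log scale) of each summit in or within 5 kb of the 10 genes, against its distance from the 5′ end of the gene in kb, in the direction of transcription. Red circles are the 19 summits of the optimal set, grey squares the 39 found in the permissive list alone, and shaded boxes the genes. Red circles stand near the 5′ end in gcm, repo, loco, moody and Gli, past the 3′ end in gcm2, repo, moody and nrv2, and nowhere in Eaat1, wrapper and Nrx-IV.

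The fate genes came first in the order of action. Gcm (FBgn0014179, 2L from 9579498 to 9581745, minus strand) encodes the transcription factor that starts gliogenesis. Its only optimal summit, at 9581758, lay 13 bp upstream of its single start. The signal there was 87.4, 354.8 and 94.1 in replicates 1, 2 and 3, at ranks 2865, 709 and 2699 of 30000. Relative to the median peak this was 1.07, 2.87 and 1.12, with a mean of 1.69 ± 1.02 (SD, n = 3). Replicates 1 and 3 thus placed gcm at a typical peak, and replicate 2 alone placed it well above. Without replicate 2 the mean was 1.10. The value in replicate 2 was 2.62 times the mean of the other two. This ratio was lower at 97.9% of the 5852 common peaks, whose median ratio was 0.967 with quartiles of 0.732 and 1.43. By pooled signal, 528.7, gcm ranked 1006 of the 3679 bound genes, a rank that includes the high replicate.

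The paralogue gcm2 (FBgn0019809, 2L from 9608562 to 9612706, plus strand) encodes a related factor that acts together with Gcm. It had no promoter summit in the pooled permissive list, although the list of replicate 2 alone had 1 within 500 bp of its start. Inside the gene, a weak intronic region at 9609590 had a pooled signal of 40.5 and was found in replicate 2 alone. The permissive lists of replicates 1, 2 and 3 had 0, 1 and 2 summits inside the gene. The optimal summit nearest to it, at 9616770, lay 4064 bp past its 3′ end and 66 bp from the start of GlcAT-S. That summit had relative signals of 0.591, 0.909 and 0.419, or 0.640 ± 0.248 (SD, n = 3). Of the 26816 bp between the paralogues, the optimal set marked the gcm start and a pair of weaker places. The latter, at 9595063 and 9598560, had pooled signals of 168.4 and 169.0 and lay 5433 bp from the start of CG3841 and 2312 bp from that of CG4382.

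Repo (FBgn0011701, 3R from 18236192 to 18239602, plus strand) encodes a homeodomain factor of nearly all lateral glia. Its promoter summit at 18236047, 145 bp upstream of the start, was weak. Relative signal was 0.396, 0.617 and 0.565, with a mean of 0.526 ± 0.116 (SD, n = 3), and each replicate stood below the median peak. The ranks were 8726, 5622 and 6004, so in replicate 1 the summit lay outside the strongest 6793 regions. Its pooled signal of 170.9 ranked 3228 of the 3679 bound genes. It was therefore lost when a peak had to be among the strongest 6793 regions of both remaining replicates and replicate 2 or replicate 3 was left out. The summit nevertheless held the closest match to the NRF-1 palindrome among the 7 promoter summits, with 1 mismatch at 21 bp from the summit.

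The strongest peak near repo belonged to another promoter. The summit at 18242588, 2986 bp past the 3′ end of repo and 57 bp from the start of 14-3-3epsilon, which encodes a kinase-signalling adaptor, ranked 3 of 6793. Relative signal there was 15.0, 10.7 and 14.4, with a mean of 13.4 ± 2.31 (SD, n = 3). It exceeded the repo promoter in all 3 replicates and also lay within 500 bp of a start of CG7156. Further summits, at 1097 and 1296 bp from the same 14-3-3epsilon start, had means of 2.01 ± 0.472 and 0.548 ± 0.0942 (SD, n = 3 each).

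The signalling genes of the barrier carried the strongest promoter summits of the 10. Loco (FBgn0020278, 3R from 22619968 to 22639387, minus strand) encodes an RGS protein, which speeds GTP hydrolysis by G protein alpha subunits and acts with Moody. Its outermost start had a pair of summits in 1 interval, from 22639025 to 22639843. At 22639365, 22 bp inside the gene in the 5′ UTR, the signal was 373.4, 715.0 and 362.2 in replicates 1, 2 and 3, at ranks 202, 148 and 246. Relative signal was 4.59, 5.78 and 4.31, with a mean of 4.89 ± 0.782 (SD, n = 3). At 22639565, 178 bp upstream, it was 3.10, 3.97 and 2.86, with a mean of 3.31 ± 0.585 (SD, n = 3). The inner summit was the stronger one in all 3 replicates. The closest summits of the optimal set were 199 bp apart and 371 neighbouring pairs lay within 220 bp, and whether such pairs are separate places of binding was not tested. Loco ranked 146 of the 3679 bound genes by pooled signal. The start of wake lies 421 bp from that of loco, and both summits were within 500 bp of it, so that this signal can belong to wake as well.

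Loco has 4 starts, and none of the inner starts had an optimal summit within 500 bp. The pooled permissive list had regions at 22633201 and 22636641, each within 500 bp of an inner start, with pooled signals of 92.3 and 49.8, below the optimal set. The remaining inner start had no region of either list within 500 bp, and its nearest was a permissive region 569 bp away. Further optimal summits lay in introns. The one at 22624960 had relative signals of 1.07, 0.665 and 0.828, or 0.855 ± 0.205 (SD, n = 3), near a typical peak. The one at 22626028, 606 bp from that same start, had 0.630 in replicate 1 and 0.686 in replicate 3, with none within 100 bp in replicate 2. Its pooled signal of 153.6 was among the lowest of the 19.

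Moody (FBgn0025631, X from 2044292 to 2050120, minus strand) encodes a G protein-coupled receptor of the subperineurial glia. The summit at 2050279 lay 159 bp upstream of its start. The signal was 257.6, 332.4 and 243.4 in replicates 1, 2 and 3, at ranks 463, 799 and 561. Relative signal was 3.17, 2.69 and 2.90, with a mean of 2.92 ± 0.239 (SD, n = 3), so the replicates lay close together. Moody ranked 489 of the 3679 bound genes, and no other protein-coding start lay within 500 bp of this summit. Its window held 4 copies of GAGAG, the core of the element of the GAGA factor. A weaker region at 2050487, 367 bp upstream, was in the permissive list alone, with a pooled signal of 82.1. Past the 3′ end of moody, 3 optimal summits lay within 500 bp of starts of usp, CG4313 or Actn. Their means were 1.33 ± 0.318, 0.566 ± 0.192 and 0.451 ± 0.177 (SD, n = 3 each).

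The order of the 5 bound genes was in part shared by the replicates. By their strongest promoter summit, loco was the highest and repo the lowest in each of the 3 replicates. Moody exceeded Gli in all 3 and gcm in replicates 1 and 3, but not in replicate 2. Gcm and Gli changed places between replicates and did not differ beyond their spread. These orders were not tested, since an exact paired test over 3 replicates cannot give a two-sided p below 0.25.

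**Figure D2:**
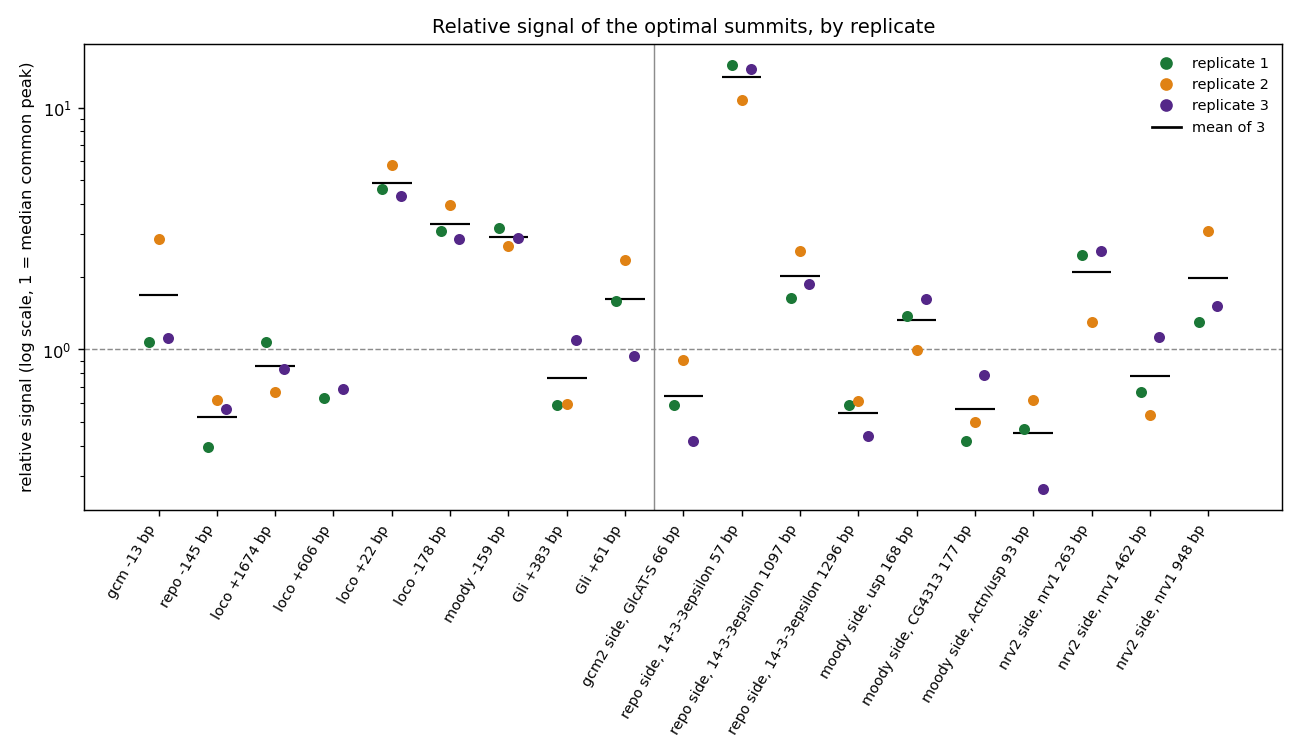
Relative signal (log scale, 1 is the median common peak) of the 19 optimal summits at the 10 genes in replicates 1, 2 and 3, with the mean of 3 as a bar where all were found. To the left of the vertical line the member's own start is nearest, with the distance to it in bp; to the right a neighbour's start is nearest. The loco and moody promoter summits stand above 1 in every replicate, repo stands below 1 in every replicate, and gcm is above 2 in replicate 2 alone.

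The junction genes differed from each other. Gli (FBgn0001987, 2L from 15756002 to 15762758, minus strand) encodes Gliotactin, a cholinesterase-like membrane protein of tricellular junctions. At 15762697, 61 bp inside the gene in the 5′ UTR, relative signal was 1.58, 2.35 and 0.940, with a mean of 1.62 ± 0.706 (SD, n = 3). Replicates 1 and 2 were above the median peak and replicate 3 was just below it. The pooled signal was 488.6, and Gli ranked 1143 of the 3679 bound genes. The intronic summit at 15762025, 383 bp from an inner start, had 0.590, 0.593 and 1.10, or 0.759 ± 0.290 (SD, n = 3). The 5′ summit was the higher one in replicates 1 and 2 and the lower one in replicate 3, so their order did not hold over the replicates.

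Nrx-IV (FBgn0013997, 3L from 12146519 to 12156990, plus strand) encodes Neurexin IV, a transmembrane core protein of septate junctions. It had no optimal summit in the gene or within 5 kb. A permissive region at 12146464, 55 bp upstream of its start, was found in all 3 replicates with relative signals of 0.327, 0.290 and 0.203. It also lay within 500 bp of a start of eIF3l. The pooled signal was 91.9 at rank 10127, against a lowest value of 141.8 in the optimal set. The region was thus found in each replicate, but below the threshold.

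Nrv2 (FBgn0015777, 2L from 6789770 to 6798862, minus strand) encodes a beta subunit of the sodium pump that septate junctions need. Within 500 bp of its 4 starts, the single permissive region was at 6794537. It had a pooled signal of 35.5 at rank 25718 and a partner in replicate 2 alone. Stronger permissive regions lay in introns just outside this window, at 6797617 and 6795186, 577 and 587 bp from a start. Their pooled signals were 97.1 and 107.4, and both were found in all 3 replicates. Past its 3′ end, 3 optimal summits had the start of nrv1, a second beta subunit gene, as the nearest. The one at 6787124, 263 bp from that start, had 2.45, 1.30 and 2.55, or 2.10 ± 0.698 (SD, n = 3). The one at 6787809, 948 bp away, had 1.30, 3.09 and 1.52, or 1.97 ± 0.976 (SD, n = 3), and 6 copies of GAGAG in its window. The one between them, at 6787323, had a mean of 0.776 ± 0.311 (SD, n = 3). In replicates 1 and 3 the first was the stronger of this group, and in replicate 2 the summit at 6787809 was.

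The ratio of replicate 2 to the mean of replicates 1 and 3 varied among the other summits of these genes. At the 5′ summit of Gli it was 1.87, and 88.9% of the common peaks had a lower ratio. For 6787809 next to nrv1 it was 2.19, and 94.7% were lower. At 6787124 it was 0.518, a ratio that 5.64% of the common peaks undercut. At loco and moody the ratios were 1.30 and 0.887, inside the quartiles of all common peaks. The part that library differences have in these ratios was not tested.

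**Figure D3:**
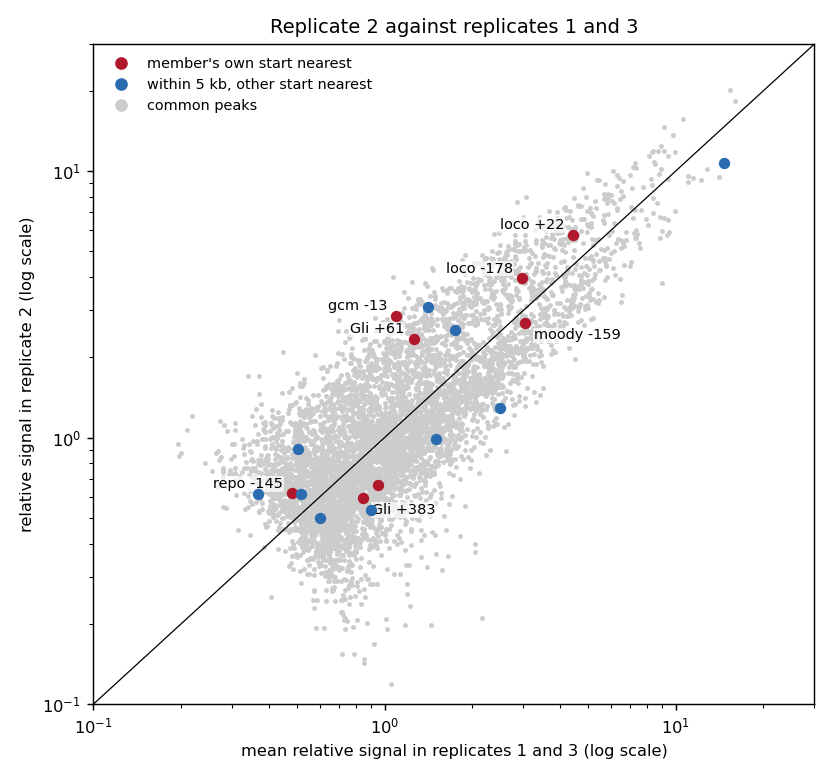
Relative signal in replicate 2 against the mean of replicates 1 and 3, both on log scales, for the 5852 common peaks (grey) and the 18 optimal summits at the 10 genes that were found in all replicates (red where the member's own start is nearest, blue otherwise). The line marks equal values. The gcm summit lies above the line, with a ratio of 2.62, while moody lies close to it.

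Wrapper and Eaat1, genes of glia that support neurons, had no optimal summit in the gene or within 5 kb. Wrapper (FBgn0025878, 2R from 22379637 to 22382675, plus strand) encodes an immunoglobulin-family protein of glia that ensheath neurons. A permissive region 299 bp upstream of its start, at 22379338, had relative signals of 0.255, 0.363 and 0.598. Its ranks in replicates 1, 2 and 3 were 14832, 9870 and 5656, and its pooled signal was 124.8 at rank 7673. Another at 22384525, 1850 bp past the gene, had 137.7 at rank 6970. These were the nearest values outside the threshold, while the nearest inside it were 145.4 next to moody and 153.6 in loco. The region past wrapper was thus just below the lowest signal of the optimal set, 141.8.

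Eaat1 (FBgn0026439, 2L from 9333567 to 9341925, plus strand) encodes a glutamate transporter of astrocyte-like glia. The pooled permissive list had 1 region within 5 kb, at 9330709 and 54 bp from a start of Cks30A, with a pooled signal of 38.2 and no partner in any replicate. The lists of the replicates had 2, 0 and 4 summits within 5 kb of the gene, of which 1, 0 and 0 lay within 500 bp of a start. The strongest was 24.3 at rank 12062 in replicate 1 and 21.5 at rank 16007 in replicate 3. Of the 10 genes, Eaat1 had the least signal around it.

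Motifs were counted within 100 bp of a summit on both strands. TGCGCA, which makes up one arm of the NRF-1 site, was in 7 of the 19 windows, against 17.2% of all optimal summits, and in 3 of the 7 promoter windows (gcm, Gli and the inner loco summit). An exact NRF-1 palindrome was in 1 window, the one at 14-3-3epsilon, against 1.94%. With at most 1 mismatch 2 windows held it, that of 14-3-3epsilon and that of repo, against 10.5%. GAGAG was in 9 of 19 windows, against 31.9%, with moody and Gli among the promoters. With windows of 50 bp it was in 5 (18.7% of all summits) and with 250 bp in 11 (57.9% of all summits), the last share being that of the members as well. The DRE was in 1, at loco, against 3.46%, and in 3 with 250 bp, against 5.96%. The E-box CACGTG and the Gcm site ATGCGGGT were in none, against 2.58% and 0.221%. An exact palindrome overlaps the hexamer, and the matches are descriptions of these letters.

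Wider lists of glial and barrier genes placed the 10 among their partners. They named 56 genes, of which 54 matched a symbol and 26 were bound. Of the 44 matched genes outside the 10, 21 were bound, or 47.7%, against 26.4% of all genes. The 26.4% was not matched for the number of starts, and the bound share rose with that number. Over all genes it was 20.1% with 1 start, 41.1% with 2 or 3 and 64.5% with 4 or more. The Moody pathway had 7 of 7 bound genes and the glial fate genes 5 of 7. Septate junction genes followed with 10 of 22, cortex, ensheathing and wrapping glia with 2 of 6, astrocyte-like glia with 2 of 8 and barrier transporters with 0 of 5. In the permissive list these counts were 7, 6, 19, 4, 4 and 1, where 46.8% of all genes had a promoter summit.

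**Figure D4:**
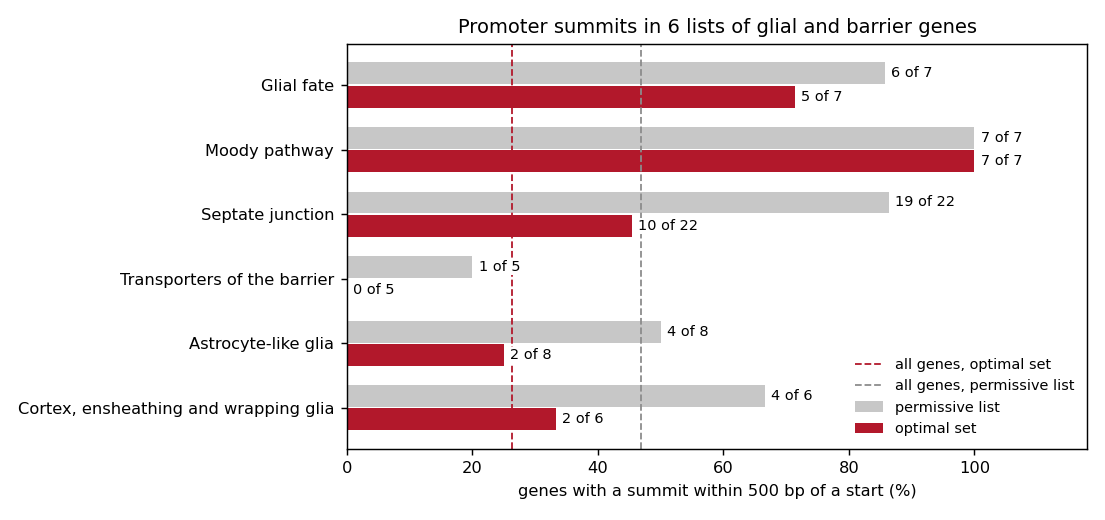
Share of the genes in each of 6 lists with a summit within 500 bp of a start, as bars from 0 to 100%, in the optimal set (red) and the pooled permissive list (grey), with counts beside the bars. Dashed lines are the shares of all protein-coding genes, 26.4% and 46.8%. The Moody pathway stands at 7 of 7 in both, and the transporters at 0 of 5 in the optimal set and 1 of 5 in the permissive list.

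In the Moody pathway, the receptor and loco were joined by the G protein subunits Galphao, Galphai, Gbeta13F and Ggamma1 and by Pka-C1, the catalytic subunit of protein kinase A. Galphao had relative signals of 1.58, 4.38 and 2.27, or 2.74 ± 1.45 (SD, n = 3), again highest in replicate 2. Galphai had 1.67 ± 0.214, Pka-C1 1.62 ± 0.201 and Gbeta13F 1.22 ± 0.238 (SD, n = 3 each). The median pooled signal of the 7 was 469.5, against 323.4 for the promoter peaks of all bound genes. Ggamma1 had 1.02 and 0.813 in replicates 1 and 2 and none in replicate 3, and its summit was nearer to a start of MrgBP. The summit of Pka-C1 also lay within 500 bp of a start of hoip. Of the 7 genes, 2 have 1 start and 2 have 4 or more, Galphao having 8. These proteins also act in asymmetric division and other tissues, so the list is not specific to glia.

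In the glial fate list, the bound genes besides gcm and repo were pnt, an ETS factor of the EGF receptor pathway, and the zinc-finger factor genes hkb and zfh1. Their pooled signals were 257.8, 238.2 and 147.5, all below the 323.4 of bound promoters. Relative signal was 0.810 ± 0.462 at pnt, 0.791 ± 0.257 at hkb and 0.502 ± 0.135 at zfh1 (SD, n = 3 each). For ttk, a zinc-finger repressor, the permissive list alone had a promoter summit. The count of 5 fell to 2 without replicate 2, to 3 without replicate 3 and to 1 in the strongest 3396 peaks, where 20.1%, 20.5% and 15.8% of all genes were bound.

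Among septate junction genes the strongest was scrib, which encodes a scaffold of epithelial polarity. Its relative signal was 7.45, 8.08 and 5.79, or 7.11 ± 1.19 (SD, n = 3), above loco in all 3 replicates, and it ranked 54 of 6793. The junction gene cold followed with 1.97 ± 0.407, at a summit shared with Ipk2, and then Gli. Crok had 1.23 ± 0.258 at a summit shared with CG6583 (SD, n = 3 each). The other bound genes were Atpalpha (the sodium pump alpha subunit), dlg1, M6, pck, cora and Cont, with pooled signals from 149.8 to 319.6. Atpalpha, Cont and M6 had no partner in replicate 3, and the summit of M6 was nearer to a start of Glg1. Of the 12 unbound genes of the list, 9 had a permissive promoter summit. Over the whole list 19 of 22 had one, against 46.8% of all genes.

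The bound genes of the other lists were close to the median peak, apart from Inx2 in replicate 3. Drpr, the engulfment receptor Draper, had 1.19 ± 0.142, and htl, an FGF receptor, had 1.09 ± 0.0476 (SD, n = 3 each). The gap junction genes ogre and Inx2 were the only bound members of the astrocyte-like list. Its other genes, Eaat1, Eaat2, Gat, Gs2, alrm and e, were not bound. Ogre had 1.06 ± 0.0988 (SD, n = 3), and Inx2 had 1.19 and 0.516 in replicates 2 and 3 and none in replicate 1. Of the transporters Mdr65, Mdr49, Tret1-1, LpR1 and LpR2, LpR2 alone had a permissive promoter summit. With 5 to 8 genes a list, these counts are small.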

How the data were processed

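Chromatin immunoprecipitation of GFP-tagged Ewg was analysed in whole embryos, as 3 biological replicates of 1 group per the labels. The authors deposited peak lists on dm6 and dm3, and only the dm6 lists were used. The signal of each region is the authors' deposited value. Per the deposited file records, the permissive lists came from alignments of the replicates and a control alignment, and the optimal set from those lists. Neither the aligner nor the software that called the peaks is given in the sources used here. The scale of the signal differs between lists: its median over the 5852 common peaks was 81.4, 123.7 and 84.1 in replicates 1, 2 and 3. Relative signal removes this factor only. Read depth is unknown, so no counting intervals are given.

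Genes came from Ensembl release 115 (13945 protein-coding genes on the main chromosomes), and sequence from the RefSeq assembly of dm6. Positions are counted from 1. The members and the gene lists were chosen with earlier results of these data known, so no set test was made. The main counts are set beside the share of all genes. All 10 members were named with every optimal summit in the gene or within 5 kb. Also named were permissive summits within 500 bp of a member's start, or the strongest where there was no optimal one, and the bound list genes. Weak regions named beyond this rule, and the interval between gcm and gcm2, were chosen after their values were seen. Genes sharing a summit were each counted. Alternatives were other windows, flanks, start definitions, a stricter peak set and leaving out replicates. Simulated data were used to test the promoter calls, at genes with 1 start, and the search for the NRF-1 palindrome. The counting of the other motifs was not tested in this way. Python 3.11.15 was used with numpy 2.4.6, pandas 2.3.3 and matplotlib 3.10.9.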

Additional observations from a re-analysis of the deposited data

How the results depend on the processing

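The count of bound members was 5 of 10 with promoter windows of 250 bp and 1 kb, with the outermost start and with the nearest gene only, while the share of all genes moved between 20.5% and 30%. It was 4, without repo, in the strongest 3396 peaks (15.8% of all genes), and ran from 4 to 5 when a replicate was left out (19.6% to 20.5% of all genes). The last sets held 4706, 4908 and 4747 peaks, so a filter against weak peaks changed together with the replicate. The number of optimal summits at the members followed the flank, with 11 at 2 kb and 31 at 10 kb, and was 10 in the strongest 3396 peaks and 9 when the nearest start had to be the member's, an alternative chosen after seeing the data. With 10 kb, every member except Eaat1 had an optimal summit within reach, as had 71.4% of all genes.

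The astrocyte-like and the cortex, ensheathing and wrapping lists each had 1 bound gene with a 250 bp window (21.8% of all genes), and also 1 with the outermost start only (23.7%), chosen after seeing the data. In the strongest 3396 peaks the glial fate list had 1, the septate junction list 5 and the astrocyte-like list 1, again against 15.8% of all genes. Leaving out a replicate gave 2 to 4 genes in the glial fate list, with the lowest value without replicate 2, and 1 to 2 in the astrocyte-like list, against the same 19.6% to 20.5%. The Moody pathway kept 6 or 7 of 7 under the same settings, Ggamma1 or Gbeta13F being the gene lost. The transporters stayed at 0. The cause of these shifts was not tested. No paired analysis was possible because the study has no other group whose samples share the replicate numbers.

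Input or mock samples were not analysed here, and 3 replicates limit the precision of each mean. Embryos were not staged more finely and cell types were not separated.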

Other observations

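A pair of listed genes matched no symbol of the annotation and entered none of the counts. Under their current symbols, found through RefSeq synonyms, both were bound. The septate junction gene aka, now bark, had a promoter summit with a pooled signal of 407.7, and Ced-6, now ced-6, which encodes an adaptor of the engulfment receptor Draper, had 249.7.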
